A study of Mus musculus with 6 samples.

Results

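A set of 8 surface lectin genes of macrophages and dendritic cells was followed in tumor-associated macrophages (TAMs): the macrophage galactose lectins Clec10a and Mgl2, the mannose receptor Mrc1, and the CD209 family genes Cd209a, Cd209b, Cd209d, Cd209f and Cd209g. These 8 genes, of 39179 in the count table, were found by symbol. They were selected from earlier results of the same libraries, that is, on the difference between Ptgs-deficient and Ptgs-competent tumors described here. Their fold changes and adjusted p-values are therefore given as a description of where each gene lay in the fit over all genes, and nothing is read from them as a test of the set.

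TAMs were sorted from melanomas that grew in C57BL/6 hosts, 8 weeks old, after injection of BRAF-mutant mouse melanoma cells. In the Ptgs-competent group (3 libraries) the injected cells kept the cyclooxygenase genes Ptgs1 and Ptgs2, and in the Ptgs-deficient group (3 libraries) they lacked both. The edit was carried by the tumor cells, obtained from one parental line, and the macrophages of both groups were of host genotype. The sort took CD45+ CD11b+ F4/80+ cells that lacked NK1.1 and Ly6G and had absent or dim Ly6C, and each library was a pool of tumors. The comparison asks how macrophages differ between melanomas with and without tumor-derived prostanoids. Replicate libraries are separate pools, so p-values measure only the spread between these pools.

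Libraries held between 4431184 and 8760679 counts of reads from transcript 3′ ends. Coverage had gaps: of 8228 genes that reached 100 counts in some Ptgs-competent library, 2723 were at 0 in another library of the group, against 1456 of 7871 genes in the Ptgs-deficient group. Among the members, Cd209b was such a gene in the Ptgs-competent group. Gm26924, a gene model that takes up ribosomal RNA reads, held between 6.83% and 11.6% of the counts in the Ptgs-competent libraries and between 1.82% and 4.63% in the Ptgs-deficient libraries, so that this sign of library quality moved with the groups. The 37 mitochondrial genes held between 1.72% and 6.79% and between 2.20% and 2.70%. Across tested genes, Pearson correlations of log2(CPM + 1) ran from 0.526 to 0.607 within the Ptgs-competent group, from 0.66 to 0.772 within the Ptgs-deficient group and from 0.462 to 0.677 between the groups. The part of these differences in the members' values was not tested. All 12 macrophage markers (Adgre1, Csf1r, C1qa and others) were detected. Of the 8 dendritic cell markers 5 were detected, Itgax in every library with 303 to 2156 counts, and 3 (Zbtb46, Xcr1 and Ccr7) had 0 counts in every library. Of the 8 melanocyte markers 1, Mitf, was detected, and 7 (Pmel, Dct, Tyr and others) had 0 counts in every library. The summed macrophage markers lay between 3975 and 11760 CPM (counts scaled to library size by TMM) in the Ptgs-competent libraries, lowest in replicate 3, and between 15480 and 16130 CPM in the Ptgs-deficient libraries.

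C-type lectin receptors bind sugars through a calcium-dependent domain and carry the bound glycoprotein or microbe into the cell. Clec10a and Mgl2 encode receptors for terminal galactose and N-acetylgalactosamine, the mannose receptor takes up mannose-, fucose- and sulfate-bearing glycoproteins, and CD209 family receptors bind high-mannose and fucosylated glycans. Clec10a, Mgl2 and Mrc1 are textbook markers of macrophages exposed to interleukin-4.

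The members came from 3 places in the genome (GRCm38; GENCODE M21 gene bounds). Clec10a (ENSMUSG00000000318; chromosome 11, 70156197 to 70170834) and Mgl2 (ENSMUSG00000040950; chromosome 11, 70130329 to 70137550) are neighbors on the plus strand with 18646 bases and no coding gene between them. Their coding sequences were identical at 90.4% of 910 aligned bases. Mrc1 (ENSMUSG00000026712) lies alone on chromosome 2, 14229392 to 14332057. The Cd209 genes lie on chromosome 8 in a cluster of 7 genes that spans 394311 bases with no other coding gene in it. From one end, the order is Cd209a (ENSMUSG00000031494; 3743397 to 3748984), Cd209e, Cd209d (ENSMUSG00000031495; 3871824 to 3878555), Cd209b (ENSMUSG00000065987; 3917655 to 3926844), Cd209c, Cd209f (ENSMUSG00000051906; 4102787 to 4105835) and Cd209g (ENSMUSG00000079168; 4134098 to 4137707). Cd209f and Cd209g are set apart from the other 5 by a gap of 148040 bases and point in opposite directions, Cd209g on the plus strand and the other 6 on the minus strand.

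Among the Cd209 genes, Cd209f and Cd209g were also the closest pair by coding sequence. Their coding sequences were identical at 89.2% of 582 aligned bases, whereas the other Cd209 pairs ranged from 61.6% to 77.4%. The 250 bases before their RefSeq start sites (GRCm38.p6) are shown because the windows hold one identical stretch of 154 bases. Both genes had their high level in the same 3 libraries, as did 11% of all genes tested. Over the 6 libraries the Pearson correlation of their log2(CPM + 1) was 0.767, below that of Cd209g with Clec10a (0.979), Cd209d (0.941), Mgl2 (0.935) or Mrc1 (0.827). The Cd209f window is chr8:4105765-4106014 on the minus strand and the Cd209g window is chr8:4134486-4134735 on the plus strand, both written 5′ to 3′ in the direction of the gene. The 2 annotations differ here. By the GENCODE bounds Cd209g begins at 4134098, so its whole window lies inside the gene. The Cd209f window reaches into the gene, whose GENCODE bound is 4105835. Which start is used in these cells was not tested, and distances below hold for the RefSeq starts only. Capitals mark matches to TGANTCA, the AP-1 motif, and to TATAAA, a core promoter element, searched on both strands.
Cd209f: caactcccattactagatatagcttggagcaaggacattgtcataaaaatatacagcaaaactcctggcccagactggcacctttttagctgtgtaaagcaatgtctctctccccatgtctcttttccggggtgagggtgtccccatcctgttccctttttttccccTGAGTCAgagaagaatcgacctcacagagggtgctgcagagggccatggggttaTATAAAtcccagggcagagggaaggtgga
Cd209g: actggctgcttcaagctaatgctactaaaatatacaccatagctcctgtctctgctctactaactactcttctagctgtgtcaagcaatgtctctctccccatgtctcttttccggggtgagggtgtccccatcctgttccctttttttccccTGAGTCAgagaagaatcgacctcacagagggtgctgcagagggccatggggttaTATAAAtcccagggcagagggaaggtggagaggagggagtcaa
The AP-1 match began 83 bases before the Cd209f start and 97 before the Cd209g start, and the TATA match 29 and 43 bases before. The shared stretch thus sat 14 bases farther from the RefSeq start of Cd209g. Over the windows of 300 bases around the start (250 before, 50 after), the AP-1 letters were found in these 2 of the 7 members with a RefSeq window and in 7.81% of 32851 mouse promoters. TATAAA was found in Cd209a, Cd209f and Cd209g and in 13.6% of promoters. The STAT6 motif (TTC and GAA with 4 bases between them) was found in 0 of the 7 members and in 6.95% of promoters. A match is a description of letters and was not tested as a binding site.

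Because these genes are paralogs, reads could have been shared between them. The library kit reads 3′ ends, so stretches of 50 bases from the last 500 bases of each coding transcript were looked up in all other mouse transcripts. None of those of Mrc1 or of the 7 Cd209 genes occurred in another gene. Of the Clec10a stretches 13.5% occurred in Mgl2, and 2.69% of the Mgl2 stretches occurred in genes other than Clec10a. How the authors counted reads with several alignments is not given in the sources used here, so the split between Clec10a and Mgl2 is uncertain to that extent.

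The galactose lectin Clec10a stood out in its level in the Ptgs-deficient group. Replicates 1, 2 and 3 held 454, 728 and 659 Clec10a counts in the Ptgs-competent group and 6327, 16222 and 9723 in the Ptgs-deficient group. On the CPM scale these were 72.4, 119 and 142 against 1154, 1932 and 2012. The lowest Ptgs-deficient library was thus above every Ptgs-competent library. The level rose from 111 ± 35.6 to 1699 ± 474 CPM (SD, n = 3 each). On the log2 scale the difference was 3.93 ± 0.404 (SE), and edgeR gave it an adjusted p of 0.00453. By p, Clec10a ranked 2 among the 8793 genes tested. In a bulk sort, a larger share of lectin-bearing cells and more RNA per cell cannot be told apart.

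Mgl2, the neighbor of Clec10a, was lower in level but differed in the same direction. Its CPM was 13.1, 54.3 and 16.4 in Ptgs-competent TAMs and 223, 264 and 265 in Ptgs-deficient TAMs, from 76 to 331 and from 1222 to 2216 counts. The groups did not overlap, and replicate 2 was the highest of the Ptgs-competent libraries. The means were 27.9 ± 22.9 and 251 ± 24.0 CPM (SD, n = 3 each), 3.16 ± 0.611 (SE) apart on the log2 scale. The edgeR adjusted p of 0.0821 did not pass the threshold of 0.05. Ptgs-competent replicate 2 mattered here, since without it the log2 fold change was 4.09 and the adjusted p 0.0259.

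The balance between the galactose lectins varied within the Ptgs-competent group. Clec10a counts were 5.54, 2.20 and 8.67 times those of Mgl2 in Ptgs-competent replicates 1, 2 and 3. In the Ptgs-deficient replicates they were 5.18, 7.32 and 7.58 times those of Mgl2. The ranges of the ratio overlapped between the groups. With the counts of both genes summed to 1 feature, the log2 difference was 3.81 (edgeR adjusted p = 0.00535). The sum does not depend on how reads shared by the pair were split, but it does depend on whether such reads were counted at all.

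Mrc1, the mannose receptor CD206, was abundant in both groups. Its CPM was 512, 516 and 238 in Ptgs-competent TAMs and 888, 811 and 820 in Ptgs-deficient TAMs, from 1102 to 6812 counts. Replicate 3 of the Ptgs-competent group was the lowest library, as it was for the summed macrophage markers. The groups did not overlap, with means of 422 ± 160 and 840 ± 41.6 CPM (SD, n = 3 each). The difference of 0.99 ± 0.359 (SE) on the log2 scale had an edgeR adjusted p of 0.376 and was below the fold threshold of 1.5 for a call. The gene holds the microRNA gene Mir511 on the same strand.

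The order of the abundant lectins changed between the groups. A 3′ count does not scale with transcript length, but how well the 3′ end of each gene is captured and counted was not tested. The order is therefore one of CPM and need not be that of transcript numbers. Mrc1 was above Clec10a in all 3 Ptgs-competent libraries and below it in all 3 Ptgs-deficient libraries. Among the Ptgs-deficient means, Clec10a was followed by Mrc1 and Cd209f, whose library values overlapped, and then by Mgl2. Cd209g and Cd209d came next at 77.7 ± 4.49 and 76.5 ± 17.8 CPM (SD, n = 3 each), again with overlapping values, followed by Cd209b. Among the Ptgs-competent means, Mrc1 led, and the ranges of Clec10a and Cd209f overlapped, as did those of Mgl2, Cd209b and Cd209d.

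**Figure D1:**
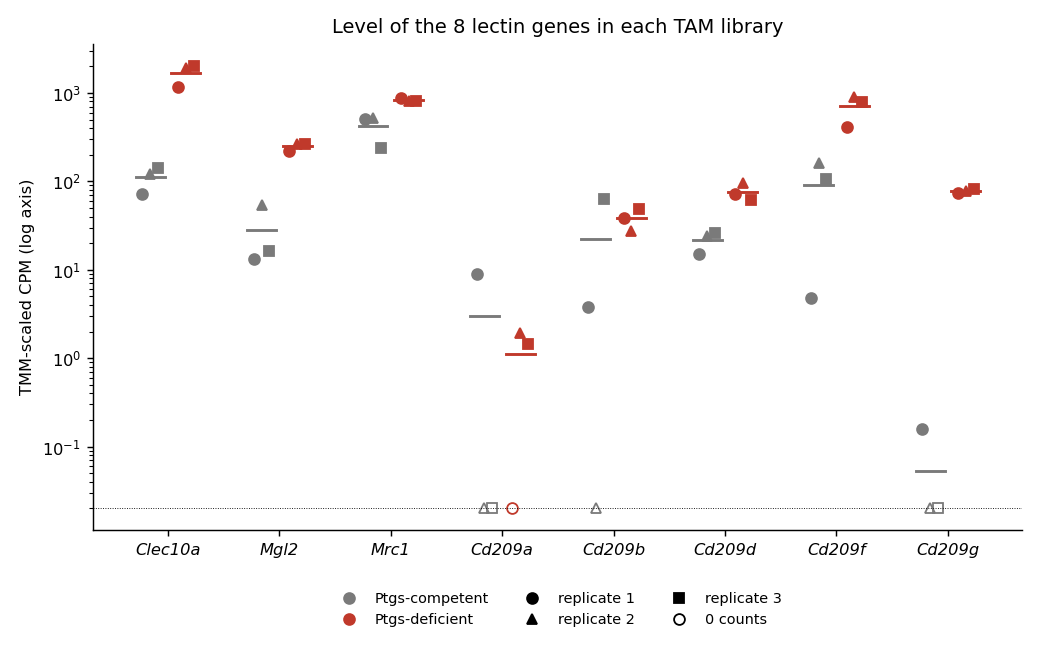
TMM-scaled CPM (log axis) of the 8 lectin genes in the 3 Ptgs-competent (gray) and 3 Ptgs-deficient (red) TAM libraries; markers give the replicate, horizontal bars the group mean, and open markers on the dotted line a count of 0. The Ptgs-deficient libraries lie above all Ptgs-competent libraries for Clec10a, Mgl2, Mrc1, Cd209d, Cd209f and Cd209g, and the groups overlap for Cd209a and Cd209b.

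Within the CD209 family, Cd209f was the most abundant gene in 5 of 6 libraries. Ptgs-competent replicates 1, 2 and 3 held 30, 974 and 489 of its counts and the Ptgs-deficient replicates 2285, 7536 and 3833. As CPM these were 4.78, 160 and 105 against 417, 897 and 793. The groups did not overlap, but Ptgs-competent replicate 1 was far below the other 2 of its group. The means were 90.0 ± 78.7 and 702 ± 253 CPM (SD, n = 3 each), and the log2 difference of 2.96 ± 0.911 (SE) had an adjusted p of 0.292 by edgeR. Without Ptgs-competent replicate 1 the log2 difference was 2.41 (adjusted p = 0.108), and without replicate 2 it was 3.68 (adjusted p = 0.348).

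Cd209g, next to Cd209f in the genome, was close to absent from the Ptgs-competent libraries. It had 1, 0 and 0 counts there, against 400, 656 and 396 in Ptgs-deficient replicates 1, 2 and 3. By counting error alone, a count of 0 allows up to 0.492 CPM in replicate 2 and 0.647 CPM in replicate 3. The 3 Ptgs-deficient libraries were close to each other at 73.0, 78.1 and 81.9 CPM, the smallest relative spread of any member in that group apart from Mrc1. Summed over the libraries, 1452 counts against 1 gave a ratio of 1320 with a 95% interval from 237 to 52160 (exact binomial, counting error only). This interval treats each group as 1 count and leaves out the spread between pools. With the Ptgs-competent libraries set to a floor of 3 counts each, the ratio of means was 144, which is the safer lower bound. The gene, which passed the filter on low counts through the Ptgs-deficient group alone, was called higher, with an edgeR adjusted p of 0.0351. Its paralog Cd209f thus had counts in every Ptgs-competent library, whereas Cd209g had a single count in the group.

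Cd209d, also known as SIGN-R3, had counts in every library. Its CPM was 15.1, 24.1 and 26.3 in Ptgs-competent TAMs and 71.0, 96.5 and 62.1 in Ptgs-deficient TAMs, from 95 to 147 and from 300 to 810 counts. The groups did not overlap. The means were 21.9 ± 5.92 and 76.5 ± 17.8 CPM (SD, n = 3 each). The log2 difference of 1.81 ± 0.770 (SE) had an adjusted p of 0.512 by edgeR.

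Cd209b encodes SIGN-R1, known from marginal zone macrophages of the spleen, where it captures bacterial polysaccharide. Ptgs-competent replicates 1, 2 and 3 held 24, 0 and 293 counts of it, against 210, 229 and 237 in the Ptgs-deficient group. The highest CPM of all, 63.2, was in Ptgs-competent replicate 3, and the groups overlapped. On the log2 scale the difference was 0.78 ± 1.76 (SE; edgeR adjusted p = 0.9995), and without that library it was 4.33 (adjusted p = 0.613). The depth and gaps of these libraries leave its direction undetermined.

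Cd209a, the family member best known from dendritic cells, was barely detected. Ptgs-competent replicates 1, 2 and 3 held 56, 0 and 0 counts and the Ptgs-deficient replicates 0, 16 and 7, and the gene did not pass the filter on low counts. Of the remaining family genes, Cd209c had 182 counts in Ptgs-competent replicate 2 alone, and Cd209e had 25 and 137 counts in Ptgs-deficient replicates 2 and 3 alone. Neither was tested.

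**Figure D2:**
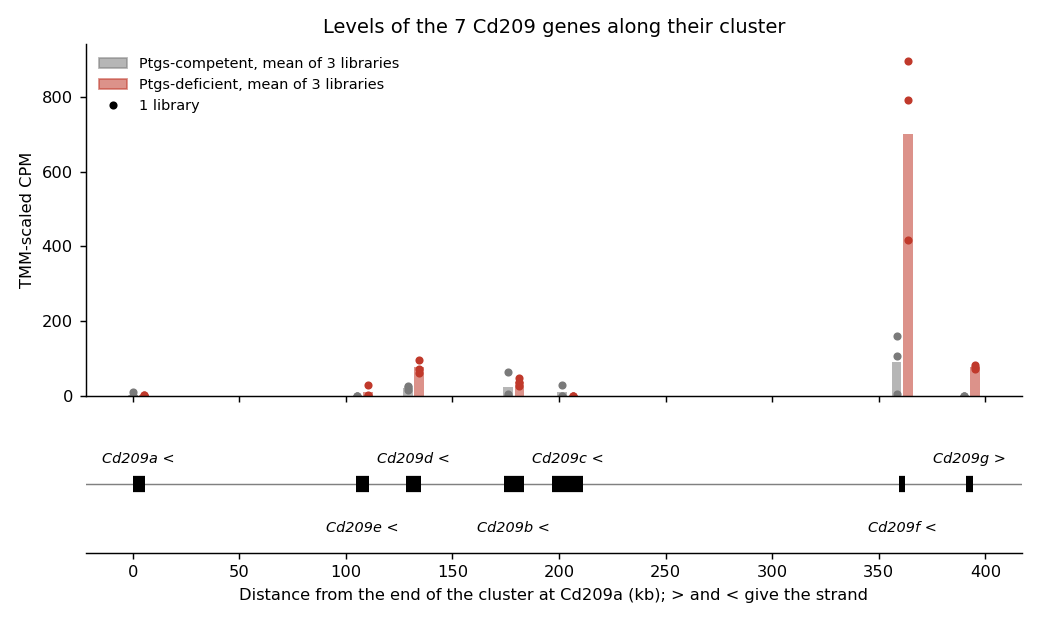
TMM-scaled CPM of the 7 Cd209 genes (bars, mean of 3 libraries; points, single libraries; gray, Ptgs-competent; red, Ptgs-deficient) above a map of their order, drawn to scale as distance from the Cd209a end of the cluster in kb. The tallest bar is that of Cd209f in the Ptgs-deficient group (702 CPM), and Cd209g, its neighbor, has a visible bar in that group only.

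Counted together, the 7 Cd209 genes had 206, 1303 and 904 counts in Ptgs-competent TAMs and 3284, 9272 and 4910 in Ptgs-deficient TAMs. The means of their sum were 147 ± 99.5 and 906 ± 270 CPM (SD, n = 3 each), without overlap, and the summed feature differed by 2.62 on the log2 scale (edgeR adjusted p = 0.159). The make-up of the family was more alike among Ptgs-deficient libraries. Cd209f made up 69.6%, 81.3% and 78.1% of the family there, compared with 14.6%, 74.8% and 54.1% in Ptgs-competent TAMs. Cd209g made up 12.2%, 7.08% and 8.07% of the family in Ptgs-deficient TAMs and 0.485%, 0% and 0% in Ptgs-competent TAMs. In the library with the fewest counts, Ptgs-competent replicate 1, the 95% Wilson interval of the Cd209f share ran from 10.4% to 20.0%, below those of the other 5 libraries (lowest bound 50.8%). The counts of 0 for Cd209g allow shares of up to 0.230% and 0.332%. The largest share beside Cd209f was that of a different gene in each Ptgs-competent library, namely Cd209d in replicate 1, Cd209c in replicate 2 and Cd209b in replicate 3.

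**Figure D3:**
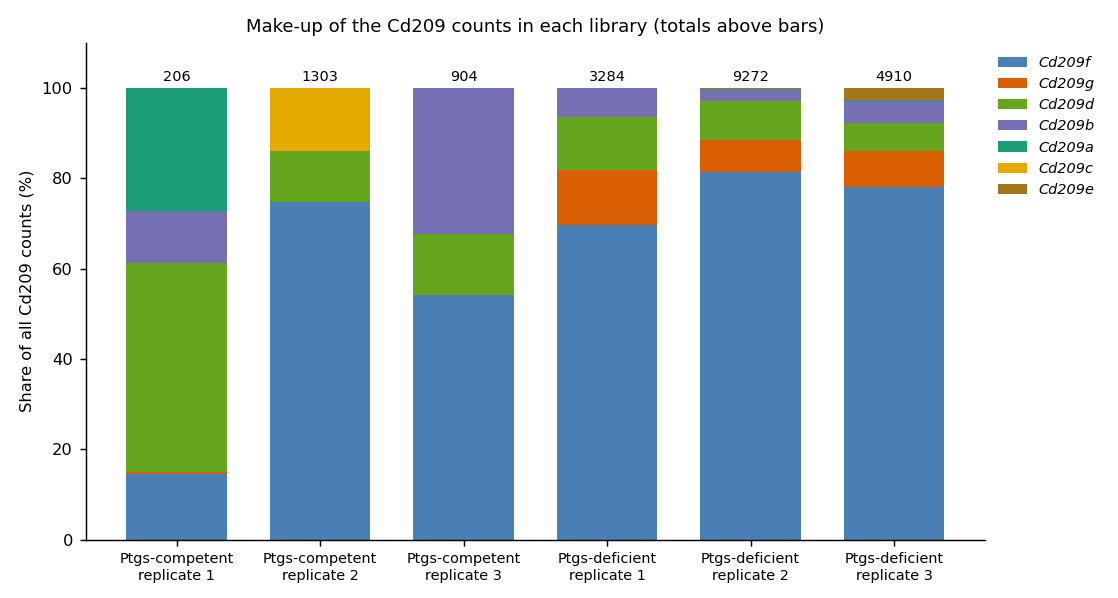
Share (%) of each Cd209 gene in all Cd209 counts of a library, with the total number of Cd209 counts above each bar. Cd209f (blue) fills between 69.6% and 81.3% of the 3 Ptgs-deficient bars and between 14.6% and 74.8% of the Ptgs-competent bars.

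In all, 2 of the 8 members, Clec10a and Cd209g, were called higher (edgeR adjusted p at or below 0.05 and a log2 fold change of at least 1.5), where 0.159% of all 8793 genes tested were called higher. The groups did not overlap, with the Ptgs-deficient libraries higher, for 6 of the 7 members tested, and for 11% of all genes tested. The 7 log2 fold changes were all above 0 in this fit (that of Cd209b turned to -1.16 when libraries were scaled by macrophage markers), with a median of 2.96, where the median of all genes tested was 0.02 and 50.7% of them were above 0. Since the members were chosen on this contrast, these shares describe the choice and carry no weight of their own.

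The macrophage markers moved with the members. Of the 12, 0 were called by edgeR, with 10 log2 fold changes above 0 and a median of 0.94. To show the members beside them, each member was set against the summed counts of the 12 markers in the same library, a scaling chosen after the data were seen. Mrc1 had 4.90, 4.39 and 5.98 counts per 100 marker counts in Ptgs-competent TAMs and 5.67, 5.24 and 5.09 in Ptgs-deficient TAMs. On this scale Mrc1 overlapped between the groups, with means of 5.09 ± 0.810 and 5.33 ± 0.301 (SD, n = 3 each), and the overlap came from Ptgs-competent replicate 3 alone. Clec10a had 0.693, 1.02 and 3.57 against 7.37, 12.5 and 12.5 counts per 100 marker counts, still without overlap.

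The other members split in the same way. Mgl2 (0.333 ± 0.182 against 1.59 ± 0.148), Cd209f (1.35 ± 1.30 against 4.46 ± 1.62) and Cd209g (0.493 ± 0.0233 in the Ptgs-deficient group) did not overlap per 100 marker counts (SD, n = 3 each). For Cd209f the margin was narrow, 2.65 in Ptgs-competent replicate 3 against 2.66 in Ptgs-deficient replicate 1. Cd209a, Cd209b and Cd209d overlapped. With libraries scaled by this sum in edgeR, the log2 fold change was 2.62 for Clec10a (adjusted p = 0.192), 2.26 for Mgl2 (0.246), 0.07 for Mrc1 (0.964), 0.53 for Cd209d (0.865), 1.72 for Cd209f (0.461) and -1.16 for Cd209b (0.83). Cd209g, whose fitted value rests on a single Ptgs-competent count and on the prior count, was at 9.31 (edgeR adjusted p = 0.177) compared with 9.96 as reported. With this scaling 0 members were called, while 3 had an unadjusted p under 0.05, as did 1300 of all 8793 genes tested. Of all genes tested 0% were called higher and 1 gene lower, so the count of 0 is not particular to the members. The median log2 fold change of all genes moved to -1.09. The part of the marker difference in the members' values was not tested further.

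The marker sum itself rested on few genes and on 1 library. C1qa, C1qb and C1qc made up between 55.7% and 70.5% of it. The other 9 markers summed to 4632, 4212 and 1400 CPM in Ptgs-competent replicates 1, 2 and 3 and to between 4573 and 5209 CPM in Ptgs-deficient TAMs, so that these ranges overlapped. Per 100 counts of the 9 markers, Mrc1 was 11.1, 12.3 and 17.0 against 17.0, 17.7 and 16.7, and again only Ptgs-competent replicate 3 reached the range of the Ptgs-deficient libraries. With libraries scaled by the 9 markers, the log2 fold change was 2.86 for Clec10a (edgeR adjusted p = 0.31) and 0.35 for Mrc1 (0.838). Here 0 members were called, with 3 at an unadjusted p under 0.05. Of all 8793 genes tested, 901 had an unadjusted p under 0.05 and again 0% were called higher. With libraries scaled by all 12 markers but without Ptgs-competent replicate 3, Clec10a was called higher (log2 fold change 3.66, edgeR adjusted p = 0.0175), where 0.0616% of all genes tested were called higher. Cd209g was not called (9.12, edgeR adjusted p = 0.0892), Mrc1 was at 0.20 (0.901), and Cd209b was at 3.71 (0.56) in place of -1.16. The loss of the Clec10a call under the 12-marker scaling thus depended on that library.

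**Figure D4:**
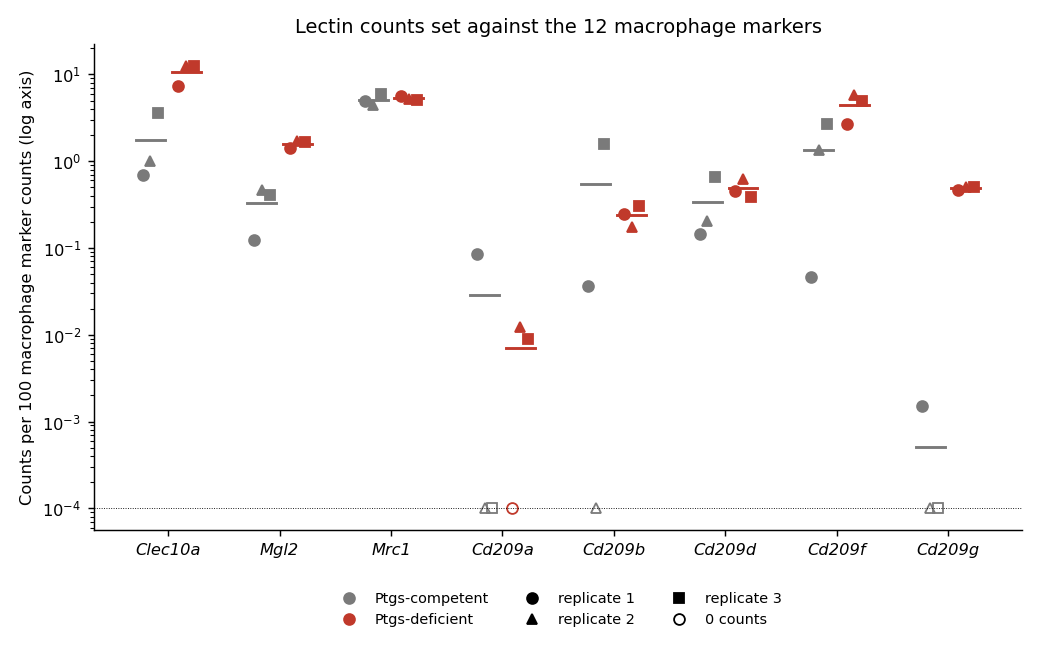
Counts of each lectin gene per 100 counts of the 12 summed macrophage markers (log axis) in the same library, colors and markers by group and replicate as in the plot of CPM levels, with open markers on the dotted line for a count of 0. The groups overlap for Mrc1 (means 5.09 and 5.33) and stay apart for Clec10a, Mgl2, Cd209f and Cd209g.

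The marker lists of other cells were summed in the same way. The 6 monocyte markers summed to between 258 and 527 CPM in the Ptgs-competent and between 1452 and 2370 CPM in the Ptgs-deficient libraries, with Plac8 called higher. Of 5 tested, 4 log2 differences were above 0 and 1 below, that of Vcan (47.6 ± 32.6 against 5.72 ± 9.90 CPM, SD, n = 3 each, without overlap). The tissue-resident macrophage list (Lyve1, Folr2, Timd4 and others) summed to between 2616 and 5796 CPM and between 8957 and 10390 CPM, with 1 of 11 tested, Cd5l, called higher, 9 of 11 log2 differences above 0 and their median at 1.95 (all genes tested: 0.159% called higher, 50.7% above 0, median 0.02). Of the 11, 2 (Timd4 and Cd5l) had at most 3 counts in any Ptgs-competent library and passed the filter through the Ptgs-deficient group alone. Dendritic cell markers summed to between 140 and 351 CPM and between 64.8 and 145 CPM, with Itgax the largest part in every library, and these ranges overlapped. Fibroblast markers summed to between 157 and 349 CPM and between 15.9 and 51.2 CPM. Markers of neutrophils, cells that the Ly6G gate would remove, had Ly6g at 0 counts in every library and summed to between 620 and 724 CPM in Ptgs-competent TAMs and between 452 and 532 CPM in Ptgs-deficient TAMs. Endothelial markers summed to between 92.9 and 197 CPM and between 37.3 and 71.9 CPM, with Cdh5, Tek and Emcn at 0 counts in every library. Of the 8 melanocyte markers, 7 had 0 counts in every library. The list sum, between 0 and 1.91 CPM and between 10.6 and 44.3 CPM, was thus that of Mitf alone (12, 0 and 3 against 58, 372 and 88 counts) and gives no measure of melanoma cells. The fibroblast, neutrophil and endothelial ranges and that of Mitf did not overlap between the groups, and no marker of these lists or of the dendritic cell list was called. The part of these cells in the members' values was not tested.

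The genes nearest to the members in family or function were read from the same fit. Of the other mannose receptor family genes, Mrc2 had 0 counts in every library, Ly75 had 199 counts in Ptgs-competent replicate 2 alone and Pla2r1 had 20 in Ptgs-deficient replicate 2 alone. The hepatic asialoglycoprotein receptor genes, relatives of Clec10a, were at 0 (Asgr1) or at 45 counts in 1 library (Asgr2). Cd207 (langerin), a mannose-binding lectin of Langerhans cells, had 529 and 560 counts in Ptgs-competent replicates 1 and 2, 0 in replicate 3, and 0, 7 and 0 in the Ptgs-deficient libraries. None of the genes on these lists passed the filter.

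Other myeloid C-type lectin receptors included genes with higher and lower values. Of 21 genes, 13 were tested, 8 had a log2 fold change above 0 and 5 below, 0 were called higher by edgeR and 2 were called lower, where 0.0569% of all genes tested were called lower. The median log2 difference was 0.44. Clec4n (dectin-2), a receptor for fungal mannans, fell from 661 ± 169 to 131 ± 24.1 CPM, -2.33 ± 0.352 (SE) on the log2 scale (edgeR adjusted p = 0.0350). Clec4d, a related receptor for fungal surfaces, fell from 620 ± 229 to 114 ± 18.7 CPM with an adjusted p of 0.0414 (SD, n = 3 each). Clec4b1 had means of 39.7 ± 10.2 and 254 ± 105 CPM and an adjusted p of 0.0762. The sugar-binding receptors of the macrophage surface thus included genes called in either direction.

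Genes of the interleukin-4 and STAT6 response, which includes textbook partners of Clec10a, Mgl2 and Mrc1, were taken from a list of 17. Of 12 tested, 1 was called higher and 0 lower by edgeR, with 10 log2 fold changes above 0 and a median of 2.11. Of the 10, 4 (Irf4, Ccl17, Ccl24 and Ear11) had 0 counts throughout the Ptgs-competent group. They passed the filter through the Ptgs-deficient group alone and could only lie above 0, so the count of 10 and the median carry little weight. Over all genes tested, 0.159% were called higher, 50.7% lay above 0 and the median was 0.02. Retnla, a secreted resistin-like protein, rose from 675 ± 38.5 to 10141 ± 4265 CPM (SD, n = 3 each; edgeR adjusted p = 0.00453). Irf4, a transcription factor of this response, had 0 counts throughout the Ptgs-competent group and 82, 312 and 155 counts in Ptgs-deficient TAMs, with an edgeR adjusted p of 0.267. Ccl17 had 0 counts against 134, 288 and 149, and Ccl24 had 0 against 224, 343 and 400. These chemokine genes were not called, with edgeR adjusted p of 0.246 and 0.0968, and many genes at 0 in a Ptgs-competent library had counts in another. Il4ra, the receptor subunit for interleukin-4, had 1200 ± 366 and 712 ± 63.9 CPM (SD, n = 3 each) and an edgeR adjusted p of 0.515.

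The genes with the most similar pattern were taken by the highest Pearson correlation of log2(CPM + 1) over the 6 libraries, which share their group structure, and r is given as a description. For Clec10a the leading genes were Lefty1 (r = 0.994), Plac8 (0.991) and Gm8818 (0.989), and for Mgl2 they were Ccl8 (0.998), Ly6a (0.989) and Sdha (0.987). For Cd209f they were Plk2 (0.994) and Stard8 (0.992), and for Cd209g Gm16754 (0.999), 1700026L06Rik (0.999) and Ccl17 (0.999). Cd209d was closest to Nup107 (0.993), Plac8 (0.990) and Nedd8 (0.986). Mrc1 was closest to Rfxank (0.999), D17Wsu104e (0.996) and Arhgef6 (0.992), and Cd209b to Ipo5 (0.998), Trnau1ap (0.998) and Rwdd1 (0.994). Ccl8 and Plac8 were themselves called higher. Among the members, r ranged from 0.0498 (Mrc1 and Cd209b) to 0.979 (Clec10a and Cd209g).

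The calls depended on the libraries. Clec10a kept a log2 fold change between 3.71 and 4.20 when any 1 library was left out, and its edgeR adjusted p was 0.0568 without Ptgs-competent replicate 1 and at most 0.0399 without any other library. For Cd209g the fitted log2 fold change lay between 9.48 and 11.84, values that rest on the prior count and do not measure stability. The 11.84 came without Ptgs-competent replicate 1, which held the only count of its group. Its edgeR adjusted p was 0.0407 without Ptgs-competent replicate 3 and between 0.0693 and 0.278 without any other library. The likelihood ratio test of edgeR and DESeq2 each called 4 members higher, namely Clec10a, Mgl2, Cd209f and Cd209g, where they called 1.55% and 2.02% of all genes tested higher.

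**Figure D5:**
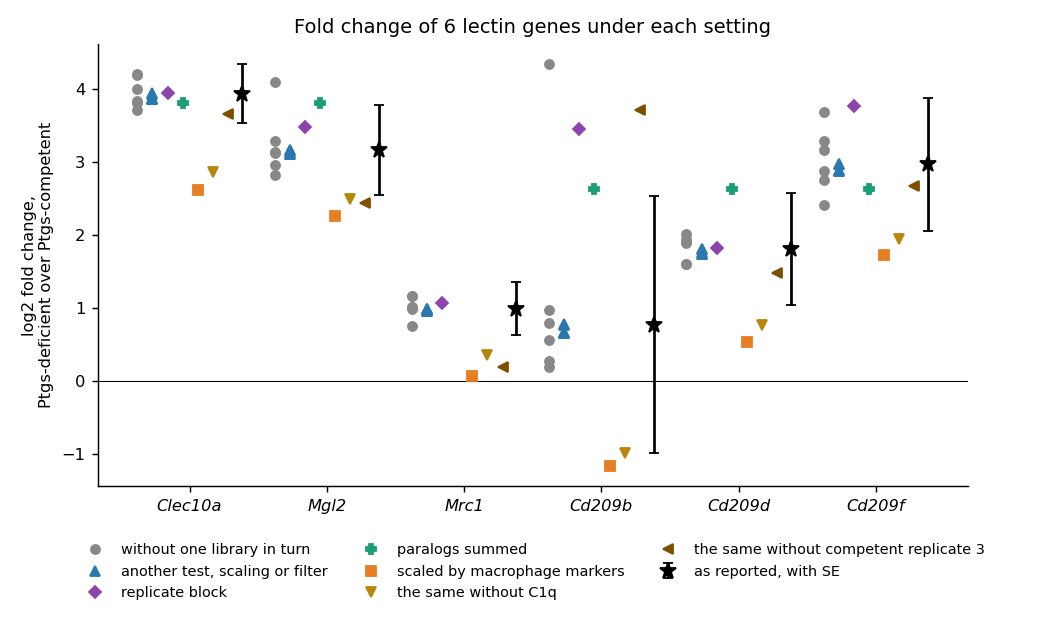
The log2 fold change (Ptgs-deficient over Ptgs-competent) of 6 members as reported (star, with SE) and under each other setting, by color and marker; for Cd209b, Cd209d and Cd209f "paralogs summed" is the sum of all Cd209 genes. All values of Clec10a, Mgl2 and Cd209f lie above 1.7, while Cd209b reaches -1.16 and Mrc1 0.07 when libraries are scaled by the 12 macrophage markers, and Cd209b is at 3.71 with that scaling once Ptgs-competent replicate 3 is left out.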

How the data were processed

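RNA from sorted TAMs was sequenced in 6 libraries (3 Ptgs-competent, 3 Ptgs-deficient), made with the QuantSeq FWD 3′ kit. The authors deposited raw read counts per Ensembl gene: reads were trimmed (BBDUK, fqtrim, cutadapt), aligned to GRCm38 with STAR and assigned with featureCounts. Tool versions, strand setting and multi-mapping are not given in the sources used here. No molecular identifiers were stated, so floors and intervals cover counting error only.

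The tests here were run with edgeR 4.0.16 under R 4.3.3: filterByExpr (minimum count 10, total 15), TMM, glmQLFit and glmQLFTest, two-sided, Benjamini-Hochberg adjustment over the 8793 genes tested. Calls needed an adjusted p at or below 0.05 and a difference of at least 1.5 on the log2 scale in either direction. The SE of a log2 fold change is its size over the square root of F. Total counts ranged from 4431184 to 8760679, and 3 counts correspond to between 0.357 and 0.647 CPM. The alternatives were the edgeR likelihood ratio test, DESeq2 1.42.0, RLE or no scaling factors, no expression filter, a replicate block, leaving out each library, summed paralogs and, chosen after seeing the data, scaling by macrophage markers, also without the 3 C1q genes and without Ptgs-competent replicate 3. The procedure was tested on simulated data.

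Members and lists were chosen with earlier results of these data known. All 8 members are named; of each related list the called genes and otherwise up to 3 with the smallest p; and for each tested member the 3 other genes with the highest correlation, of which 1 is not reported here. Other genes named were picked after their values were seen. The deposited file lists 4 of the list genes under older symbols, and these were matched by Ensembl ID. Positions come from GENCODE M21, sequences from RefSeq (GRCm38.p6; 7 of 8 members matched). Alignments used Biopython 1.88.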

Additional observations from a re-analysis of the deposited data

How the results depend on the processing

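The number of genes called, 19 as reported, was 19 with RLE factors and 21 with no scaling factors. It was 241 by the edgeR likelihood ratio test, 328 by DESeq2, 252 with every gene that had at least 1 count and 1 with libraries scaled by the macrophage markers, with or without the C1q genes (15 without Ptgs-competent replicate 3). Leaving out 1 library gave between 0 and 25 calls. The 0, without Ptgs-competent replicate 1, came with 1231 genes at an unadjusted p under 0.05. Members called higher numbered 2 as reported and 4 by the likelihood ratio test, by DESeq2 and without the filter (Clec10a, Mgl2, Cd209f and Cd209g each time). Of all genes tested, these 3 settings called 136 of 8793, 173 of 8561 and 122 of 13368 higher. With paralogs summed 1 of 3 features was called, and the share over all genes in that fit is not given here. With macrophage marker scaling 0 members were called by edgeR, with or without the C1q genes, and 3 had an unadjusted p under 0.05 each time. Of all 8793 genes tested, 1300 were under 0.05 with the C1q genes and 901 without them. Without Ptgs-competent replicate 3 this scaling gave 1 call, Clec10a. Leaving out 1 library gave between 0 and 2 called members, and the 0, without Ptgs-competent replicate 1, left 5 members with an unadjusted p under 0.05.

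Same-numbered libraries did not deviate together (correlations of -0.0418, -0.0174 and -0.0246 across genes). Those of differently numbered libraries were as small, from -0.0127 to 0.0434. With the gaps in these libraries such values would be small in any case, so they cannot tell whether the numbers pair the samples. With a replicate block 77 genes were called, 49 of the 8793 tested higher, and 4 members were called higher.

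Over 105 refitted values of single members from 15 settings, 83 kept direction and side of the threshold, 11 lost a call, 9 gained one and 2 reversed. The reversals were Cd209b at -1.16 with macrophage marker scaling and at -0.98 with the C1q genes left out of it, and without Ptgs-competent replicate 3 the first was 3.71. These scalings moved the median log2 fold change of all genes to -1.09 and -0.82, and Cd209b was reported at 0.78 ± 1.76 (SE), so the reversals say nothing particular about it. The gaps in these libraries limit what can be said of Cd209a, Cd209b, Cd209c and Cd209e.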
